A study of Mus musculus with 6 samples.

Results

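The 10 genes described here encode subunits of the oligosaccharyltransferase complex of the endoplasmic reticulum: Stt3a, Stt3b, Rpn1, Rpn2, Ddost, Dad1, Ost4, Ostc, Magt1 and Tusc3. They were found by gene symbol among the 52249 genes of the deposited count table, and all 10 were present and passed the filter on low counts. The libraries came from mouse intestinal organoids, epithelial cultures grown from intestinal tissue, in 2 groups of 3. In the first group, called control, the tumour suppressor gene Apc, a brake on WNT signalling, was knocked out. The second carried the same Apc knockout together with overexpression of IGF2BP3, an RNA-binding protein of messenger RNA, and is called OE-labelled. Apc was therefore knocked out in every library, and the labels used here name neither the method nor the promoter of the overexpression, nor strain, age or the number of animals or clones. The complex was selected on gene counts of this same comparison, OE-labelled against control, with the results known. For that reason the subunit values below are a description of these libraries, and no p-value is attached to them.

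Oligosaccharyltransferase transfers a preassembled glycan from the lipid dolichol onto asparagine residues of proteins entering the endoplasmic reticulum, the first step of N-glycosylation. STT3A and STT3B are alternative catalytic subunits that share a common set of partners, namely ribophorin I (Rpn1), ribophorin II (Rpn2), OST48 (Ddost), DAD1, OST4 and TMEM258. STT3A complexes are held at the protein translocation channel by OSTC and KRTCAP2 and act while a protein is being made, whereas STT3B complexes carry the oxidoreductase MAGT1 or TUSC3 and reach sites that were skipped. Intestinal epithelium makes large amounts of glycosylated membrane and secreted protein.

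Ost4 encodes a very small membrane protein, and its whole coding region is shown because of that size and because the gene lies across another one. It spans chr5:30907422-30907535 on the minus strand of GRCm38, with 37 codons before the stop codon, and is written from the start codon to the stop codon, both in capitals.
Ost4 coding sequence: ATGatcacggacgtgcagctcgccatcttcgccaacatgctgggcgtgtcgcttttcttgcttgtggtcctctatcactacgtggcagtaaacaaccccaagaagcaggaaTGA
The gene itself (ENSMUSG00000038803, chr5:30905885-30907788, minus strand) has 2 annotated transcripts, and the last exon of each holds no coding sequence. The last exon is 882 bases long in the longer transcript, of which 677 bases also lie in exons of Agbl5 on the opposite strand, and 249 bases long in the shorter one, all 249 of them within Agbl5 exons. Libraries of this kind are read near the polyadenylated end, and the sources used here give no strand setting for the counting, so reads of Ost4 and Agbl5 within the shared bases cannot be told apart. Levels are given as CPM, counts scaled to a common library size with TMM factors. Agbl5, a carboxypeptidase that trims tubulin tails, was counted at 7.83, 9.85 and 5.99 CPM in the control libraries and 11.3, 7.86 and 9.3 CPM in the OE-labelled libraries, with a difference of 0.27 on the log2 scale (SE 0.28; adjusted p = 0.512 in edgeR).

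The start regions of Ost4 and of the 3 subunits called as higher in the OE-labelled group (Dad1, Ddost and Rpn2) are printed to compare their sequence, since these genes lie at opposite ends of the range of fold changes. Each runs from 250 bases before to 50 bases after the RefSeq start in GRCm38.p6, and capitals mark the CCAAT box or its reverse complement ATTGG. Ost4 is at chr5:30907739-30908038 (minus strand), Dad1 at chr14:54253880-54254179 (minus strand), Ddost at chr4:138304488-138304787 (plus strand) and Rpn2 at chr2:157278848-157279147 (plus strand, the first of 2 start regions).
Ost4: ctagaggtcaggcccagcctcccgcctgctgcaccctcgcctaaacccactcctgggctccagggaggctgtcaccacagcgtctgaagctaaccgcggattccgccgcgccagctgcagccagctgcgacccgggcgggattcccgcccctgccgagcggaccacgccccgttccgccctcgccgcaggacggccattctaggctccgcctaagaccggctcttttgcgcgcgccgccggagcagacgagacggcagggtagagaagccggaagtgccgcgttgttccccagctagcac
Dad1: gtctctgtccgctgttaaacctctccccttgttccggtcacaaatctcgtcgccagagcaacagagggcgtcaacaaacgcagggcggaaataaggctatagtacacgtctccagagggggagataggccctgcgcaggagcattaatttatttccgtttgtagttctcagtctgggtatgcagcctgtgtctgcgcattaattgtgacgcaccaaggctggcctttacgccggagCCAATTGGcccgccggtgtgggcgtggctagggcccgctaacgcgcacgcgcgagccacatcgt
Ddost: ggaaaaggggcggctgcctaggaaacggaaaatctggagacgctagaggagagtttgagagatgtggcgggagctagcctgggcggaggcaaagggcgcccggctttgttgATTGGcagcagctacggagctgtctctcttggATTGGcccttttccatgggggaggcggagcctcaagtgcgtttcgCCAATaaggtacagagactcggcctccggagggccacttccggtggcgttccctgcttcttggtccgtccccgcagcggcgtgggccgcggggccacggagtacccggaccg
Rpn2: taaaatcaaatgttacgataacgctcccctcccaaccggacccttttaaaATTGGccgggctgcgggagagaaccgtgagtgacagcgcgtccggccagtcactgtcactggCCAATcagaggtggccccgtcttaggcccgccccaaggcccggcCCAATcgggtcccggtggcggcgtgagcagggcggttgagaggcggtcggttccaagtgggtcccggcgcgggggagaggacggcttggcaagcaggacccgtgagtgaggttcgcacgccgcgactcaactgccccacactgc
The CCAAT box was found 0 times in the region of Ost4, 2 times in that of Dad1 (as an overlapping pair on opposite strands), and 3 times each in those of Ddost and Rpn2. The second start region of Rpn2 held 0. Magt1, with a log2 fold change of -0.02, had the most matches, 4, and Rpn1, Stt3a and Stt3b had 1 each. Whether these counts go with the fold changes over the subunits was not tested. Entries existed for 8 of the 10 subunits, all but Ostc and Tusc3. A CCAAT box stood in a start region of 7 of these 8 genes, Ost4 being the other, against 37.4% of all 32851 regions in the table. CCACG was found in 6 of the 8 genes, Ost4 included, against 32.8% of all regions. The subunits were counted by gene, over any start region, but the background by region, with 32851 regions for 27025 genes. The background also took in genes that did not pass the filter on low counts, whereas all 8 subunits passed it. The shares are therefore of unlike units and unlike sets of genes and cannot be compared strictly. In all, 12 motifs were searched on both strands after the values had been seen. The endoplasmic reticulum stress elements ERSE and ERSE-II, each of which joins CCAAT and CCACG, had no match in the 8 genes and stood in 0.119% and 0.0365% of all regions. TGACGTG (2.01% of all regions), TGACGT, which it contains (7.51%), TCGCGA (2.5%) and the NRF1 palindrome (0.971%) had no match either. CCGGAAG matched in Ost4 and Ddost (8.86% of all regions), CACGTG in Magt1 (7.15%), AAGATGGC in Rpn1 (2.75%) and ATGGCGGC in Stt3b (2.24%).

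The libraries held 2180116 to 2228078 counts among controls and 2310236 to 2519917 in OE-labelled samples. Igf2bp3 itself had 1, 0 and 0 counts in replicates 1 to 3 of the control group and again 1, 0 and 0 in those of the OE-labelled group, so the label could not be checked by this gene. On the first principal component OE-labelled replicates 1 to 3 stood at 39.89, 23.37 and 16.26, and controls at -27.67 to -24.79. On the second, OE-labelled replicates 1 to 3 stood at 26.07, -11.71 and -26.96, and controls at 2.84 to 6.64. Controls had a biological coefficient of variation of 3.15%, and OE-labelled libraries one of 17.1%. The library names form one series for all controls and another for all OE-labelled samples, so series and group cannot be told apart. All 8 epithelial markers were counted, at a summed 4151.6 to 4389.4 CPM among controls and 5403.1 to 6126.9 CPM among OE-labelled libraries. All 6 fibroblast and all 4 endothelial markers had at most 3 counts in any library, with Col1a2, Col3a1, Dcn and Cdh5 at 0 throughout. Among leukocyte markers, Cd3e and Lyz2 were at 0 throughout, Ptprc at no more than 2 counts and Itgam at no more than 5 counts, and Cd14 had 171 to 509 counts. The part of these markers in the results was not tested.

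Among the 10 subunits, Ost4 was the one with a large difference between the groups, being 4.42-fold lower among OE-labelled libraries. Dad1, Ddost and Rpn2 were 1.41-fold, 1.46-fold and 1.4-fold higher, and the remaining 6 had log2 fold changes between -0.15 and 0.33. The edgeR fit over all genes called 4 of the 10 at an adjusted p below 0.05 (called hereafter), Dad1, Ddost and Rpn2 as higher and Ost4 as lower, where 29.2% of all 10687 genes tested were called, 16.5% as higher and 12.7% as lower. All log2 fold changes are OE-labelled minus control. Between the groups, ranges of CPM were apart for 5 of the 10 subunits, against 45.7% of all genes tested. Of these 5, Dad1, Ddost and Rpn2 were higher (25.3% of all genes) and Ost4 and Stt3a lower (20.5% of all genes). The median log2 fold change was 0.25 over the 10 subunits and 0.04 over all genes tested. With an offset for GC content the fit called 2 of the 10, Ost4 and Dad1, where it called 23.0% of all genes tested. In bulk samples, fewer cells that express a gene and less RNA per cell cannot be told apart.

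**Figure D1:**
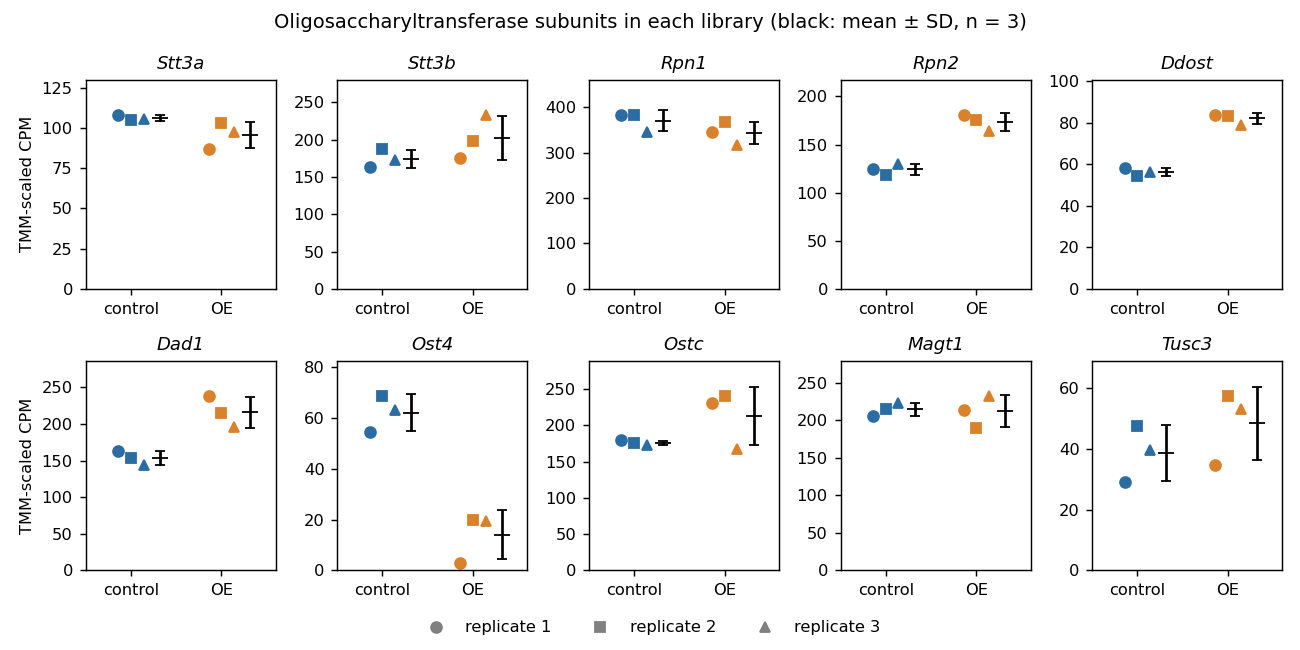
TMM-scaled CPM (vertical axis, from 0, a separate scale per gene) of the 10 subunits in the 3 control (blue) and 3 OE-labelled (orange) libraries, with the mean and SD in black. Ost4 lies between 54.4 and 68.5 CPM among controls and between 2.84 and 19.7 CPM among OE-labelled libraries, while Rpn1 and Magt1 overlap between the groups.

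Stt3a, the catalytic subunit that acts during translation (chr9:36729344-36767679, minus strand), was counted at 108.3, 105.1 and 105.5 CPM among controls and at 86.7, 103.0 and 97.2 CPM among OE-labelled libraries, in replicate order. The OE-labelled values all lay below the control values, by a small margin for replicate 2. Its log2 fold change of -0.15 (SE 0.12) was not called, and its sign turned to 0.09 with an offset for GC content. Stt3b, the catalytic subunit of skipped sites (chr9:115242581-115310421, minus strand), stood at 163.1, 186.7 and 172.3 CPM among controls and 175.0, 198.6 and 233.4 CPM among OE-labelled libraries. These ranges overlapped, OE-labelled replicate 3 was the highest, and the log2 fold change of 0.22 (SE 0.12) was not called. Stt3b made up 62.0% ± 1.95 of the counts of the catalytic pair among controls and 67.8% ± 2.51 among OE-labelled libraries (SD, n = 3), a share that does not depend on library scaling. It ran from 60.1% to 64.0% among controls and from 65.8% to 70.6% among OE-labelled libraries, so the groups did not overlap, with 589 to 782 counts of the pair behind each share. In every library Stt3b thus had more counts than Stt3a, although priming and mapping can differ between the genes. CPM ranges of single genes were apart for 45.7% of all genes tested, and how often pair shares are apart was not obtained. The GC content is 40.5% for Stt3a and 49.0% for Stt3b. With the GC offset their log2 fold changes were closer together, at 0.09 and 0.22. The part of GC content in the difference between the shares was not tested.

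The shared structural subunits differed among themselves. Ddost, which encodes OST48 (chr4:138304730-138312628, plus strand), was counted at 58.1, 54.4 and 56.2 CPM among controls and 83.9, 83.4 and 79.1 CPM among OE-labelled libraries, with a log2 fold change of 0.55 (SE 0.12). The OE-labelled libraries were all higher and lay close together. Dad1, named for its role as a defender against cell death (chr14:54235479-54254104, minus strand), had 163.1, 153.9 and 143.7 CPM among controls and 238.2, 214.7 and 195.3 CPM among OE-labelled libraries, a log2 fold change of 0.49 (SE 0.11). Its ranges did not overlap, but the call was lost without control replicate 3, where the log2 fold change was 0.45. Rpn2 (chr2:157279017-157326319, plus strand) stood at 124.9, 118.2 and 129.5 CPM among controls and 181.1, 175.4 and 163.6 CPM among OE-labelled libraries, again without overlap, with a log2 fold change of 0.48 (SE 0.11). With the GC offset Ddost and Rpn2 were no longer called, at 0.34 and 0.33, and Ddost was also lost with an offset for exonic length, at 0.36. Rpn1 (chr6:88084482-88105304, plus strand) encodes the subunit that binds nascent membrane proteins. It had 383.4, 382.8 and 344.2 CPM among controls and 344.8, 366.1 and 316.7 CPM among OE-labelled libraries, which overlapped, and a log2 fold change of -0.11 (SE 0.10) that was not called.

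Ost4, whose product is known from yeast to help hold the catalytic subunit in the complex, was counted at 54.4, 68.5 and 63.1 CPM in control libraries. In OE-labelled libraries it was counted at 2.84, 19.7 and 19.4 CPM. Replicate 1 was the lowest of all, and every OE-labelled value was far below every control value. These levels rested on 118, 146 and 137 counts among controls and 7, 50 and 46 counts among OE-labelled libraries, where the floor of 3 counts corresponds to 1.18 to 1.41 CPM. The log2 fold change was -2.15 (SE 0.36), and -1.72 without OE-labelled replicate 1. Across the 16 alternative settings it ran from -2.52 to -1.72, and Ost4 was called in all 16. The 7 counts of OE-labelled replicate 1 were the fewest of any subunit in any library. Of the counts of the 10 subunits, Ost4 took 3.7% (95% interval 3.07 to 4.41, exact Clopper-Pearson), 4.55% (3.85 to 5.33) and 4.35% (3.67 to 5.13) in the control libraries. It took 0.178% (0.0717 to 0.367), 1.19% (0.887 to 1.57) and 1.25% (0.916 to 1.66) in the OE-labelled libraries. These intervals cover counting error only. Ost4 had a coefficient of variation of 11.5% in the control group and of 69.0% in the OE-labelled group, the widest spread of any subunit in the second group.

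**Figure D2:**
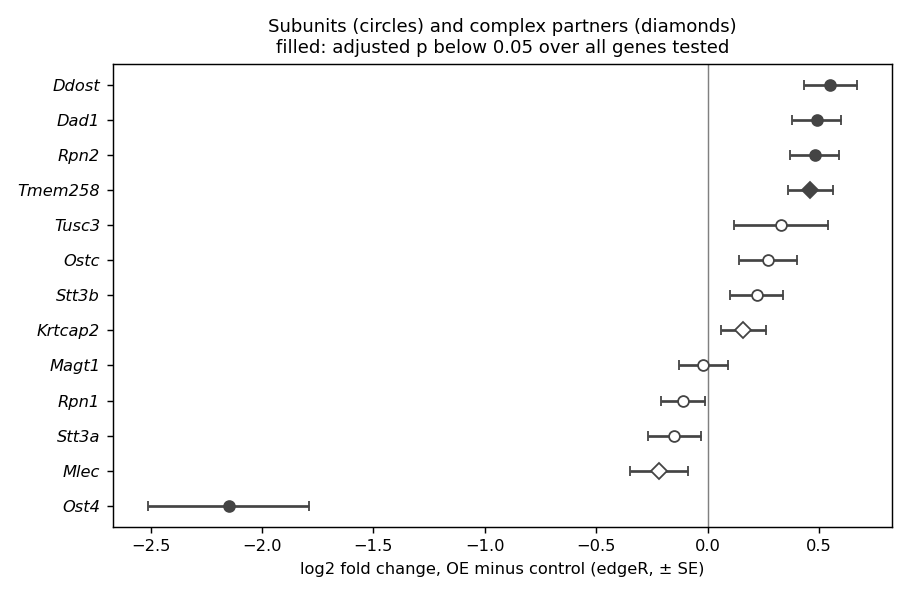
Log2 fold change of the 10 subunits (circles) and 3 partners of the complex (diamonds), OE-labelled minus control, with the SE of the edgeR fit as bars. Filled symbols were called in the fit over all genes: Ost4 at -2.15 stands apart from the other genes, which lie between -0.22 (Mlec) and 0.55 (Ddost).

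Ostc, Magt1 and Tusc3, which belong to 1 form of the complex each, had overlapping ranges. Ostc, which ties STT3A to the translocation channel (chr3:130695912-130709444, minus strand), was counted at 179.3, 175.0 and 172.8 CPM among controls and 230.1, 240.3 and 167.0 CPM among OE-labelled libraries. OE-labelled replicates 1 and 2 were above the control range and replicate 3 was below it. The log2 fold change of 0.27 (SE 0.13) was not called, but was called without OE-labelled replicate 3, at 0.42. Magt1, an oxidoreductase subunit of STT3B complexes also known for magnesium transport (chrX:105968084-106011906, minus strand), had 206.0, 214.4 and 222.5 CPM among controls and 213.9, 189.9 and 232.1 CPM among OE-labelled libraries. All 3 control values lay within the OE-labelled range, and the log2 fold change was -0.02 (SE 0.11), with a positive sign under library totals (0.03) and the GC offset (0.22). Tusc3, its paralogue (chr8:39005845-39165114, plus strand), had 29.0, 47.4 and 39.6 CPM among controls and 34.8, 57.4 and 53.3 CPM among OE-labelled libraries. Replicate 1 was the lowest of each group, and the log2 fold change of 0.33 (SE 0.21) was not called, whereas 0.46 was called without OE-labelled replicate 1. Tusc3 made up 15.2% ± 2.85 of the counts of the oxidoreductase pair among controls and 18.6% ± 4.6 among OE-labelled libraries (SD, n = 3), with overlapping ranges.

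Because a 3′ library gives about 1 read position per transcript whatever its length, the CPM of different subunits can be set side by side, although priming and mapping still differ between genes. In control libraries the order of mean CPM was Rpn1 (370.1), Magt1 (214.3), Ostc (175.7), Stt3b (174.1), Dad1 (153.6), Rpn2 (124.2), Stt3a (106.3), Ost4 (62.0), Ddost (56.2) and Tusc3 (38.7). Neighbours whose library ranges overlapped were Ostc with Stt3b, Stt3b with Dad1, and Ost4 with Ddost. In OE-labelled libraries Rpn1 was again the highest, at 342.5 CPM, and Ost4 the lowest, below Tusc3 at 48.5 CPM with no overlap. Dad1 (216.1), Ostc (212.5), Magt1 (212.0), Stt3b (202.3) and Rpn2 (173.4) followed Rpn1, each overlapping the next, and Stt3a (95.7) and Ddost (82.1) came after them without overlap. The 10 subunits summed to 1475.2 ± 28.9 CPM among controls and 1599.0 ± 46.1 CPM among OE-labelled libraries (SD, n = 3), and the 9 without Ost4 to 1413.2 ± 25.9 and 1585.0 ± 45.7 CPM. Both sums, formed with TMM scaling only, were higher in each OE-labelled library than in any control library. For the 10 subunits the lowest OE-labelled sum was 1557.1 CPM and the highest control sum 1506.4 CPM. Among all genes tested, 25.3% had CPM ranges apart and higher in the OE-labelled group. The dependence of the sums on scaling was not tested.

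The partners outside the 10 genes, Tmem258 and Krtcap2, and the glucose-binding lectin malectin (Mlec), which associates with Rpn1, were examined next. Tmem258 is a small core subunit of both forms, and rose from 233.2, 262.7 and 230.8 CPM to 344.0, 337.0 and 315.8 CPM, without overlap, a log2 fold change of 0.46 (SE 0.10; adjusted p = 0.00593 in edgeR). That call was lost without control replicate 3 (0.42, edgeR adjusted p = 0.0509, in a range over the alternatives from 0.00228 to 0.115) and with the exonic length offset. The end of Tmem258 matches the processed pseudogene Gm19726, which had 5 counts over the 6 libraries, at 96.0% over 125 bases, and the unclassified gene model Gm43942 over 239 bases, so its counts are uncertain. Krtcap2, which accompanies Ostc in STT3A complexes, had 281.6, 294.6 and 276.9 CPM among controls and 321.7, 337.0 and 295.5 CPM among OE-labelled libraries. Its ranges lay close together without overlapping, and the log2 fold change of 0.16 (SE 0.10; adjusted p = 0.244 in edgeR) did not pass. Mlec had 196.8, 195.2 and 189.8 CPM among controls and 188.0, 178.9 and 130.6 CPM among OE-labelled libraries, with replicate 3 the lowest. Its log2 fold change of -0.22 (SE 0.13; adjusted p = 0.225 in edgeR) did not pass, but without OE-labelled replicate 1 it was -0.38 (edgeR adjusted p = 0.0204, in a range up to 0.578).

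The other genes of the pathway were taken from 4 further lists. Of 27 genes that build the lipid-linked glycan, the substrate of the complex, 26 were tested. Of these, 8 were called as higher and 0 as lower, where 16.5% and 12.7% of all genes tested were called so. The log2 fold change was positive in 16 of the 26, against 5663 of all 10687 genes tested. Its median was 0.26 against 0.04 over all genes tested. The share called, 30.8%, was near the 29.2% of all genes, and with the exonic length offset 4 genes were called, all higher, with a median of 0.15. At an unadjusted p below 0.05, edgeR gave 11 higher and 1 lower, and DESeq2's test gave 5 higher and 0 lower calls after adjustment. With DESeq2 size factors the calls were 6 higher and 1 lower. The lower gene was Pmm2, at -0.50 with TMM scaling (SE 0.18; adjusted p = 0.052 in edgeR). Alg8, the glucosyltransferase that adds the second glucose, rose from 20.7 ± 0.417 CPM to 37.1 ± 4.42 CPM (SD, n = 3), or by a log2 value of 0.84 (SE 0.17; adjusted p = 0.00302 in edgeR). Dhdds, which makes the dolichol backbone, rose from 25.8 ± 1.66 to 45.3 ± 3.95 CPM (SD, n = 3; log2 0.81, SE 0.15; adjusted p = 0.00227 in edgeR). Dpm2, a regulatory subunit of dolichol-phosphate-mannose synthase, rose from 30.8 ± 4.7 to 53.7 ± 1.62 CPM (SD, n = 3; log2 0.80, SE 0.15; adjusted p = 0.00233 in edgeR). The other called genes were Gmppa, Gmppb, Dolpp1, Alg2 and Alg5, of which Dolpp1, Alg5, Alg2 and Gmppa lost their calls in 13, 11, 4 and 3 of the 16 alternatives, while 18 genes, Dpagt1 and Dpm1 among them, did not pass. The count of 8 fell to 5 without control replicate 2 and to 5 without control replicate 3.

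**Figure D3:**
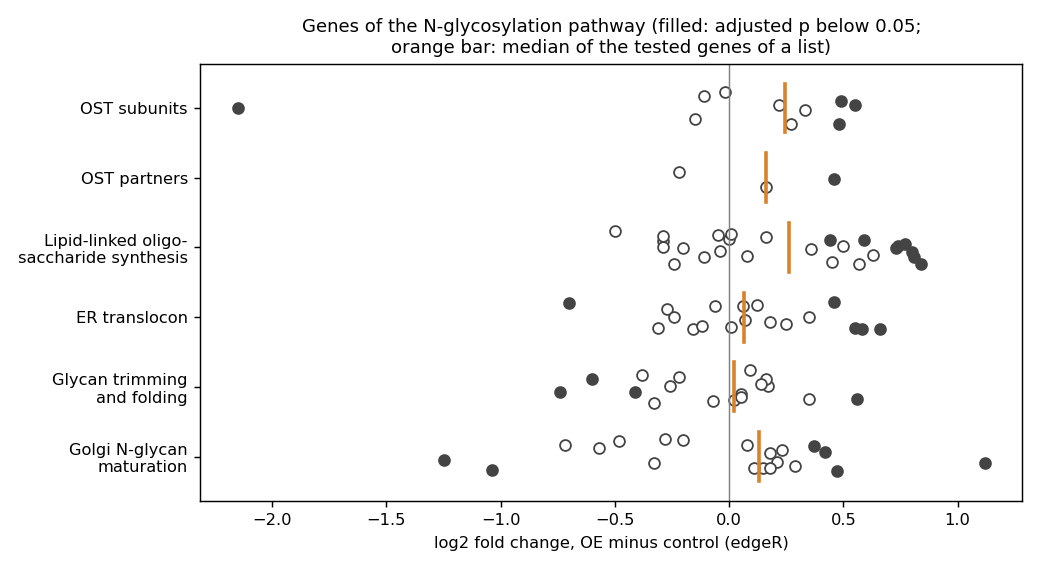
Log2 fold change (horizontal axis, OE-labelled minus control) of each tested gene in the subunit list, the partners and 4 pathway lists, with filled points called at an adjusted p below 0.05, the vertical scatter arbitrary and the list median in orange. Called genes of lipid-linked glycan synthesis all lie to the right of 0, from 0.44 (Alg5) to 0.84 (Alg8), while the other lists have called genes on both sides, except the partners with Tmem258 alone.

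Downstream of the transfer, genes of glycan trimming and glycoprotein folding gave 1 higher and 3 lower calls among 17 tested of 18 listed (23.5% called), with a median of 0.02. Canx, the lectin chaperone calnexin, fell from 605.4 ± 5.4 to 398.9 ± 40.8 CPM (SD, n = 3; log2 -0.60, SE 0.10; adjusted p = 0.00122 in edgeR), while Calr, the soluble chaperone calreticulin, had a log2 fold change of 0.09 that did not pass. Edem3, which trims mannose for degradation, had a log2 fold change of -0.74 (SE 0.23; adjusted p = 0.0307 in edgeR), and Man1b1, another mannosidase, one of 0.56 (SE 0.16; adjusted p = 0.0204 in edgeR). The call for Edem3 was lost without any 1 control library (edgeR adjusted p 0.0638 to 0.118), and that for Man1b1 without control replicate 2 or 3 or OE-labelled replicate 2 (0.0523 to 0.109). The list count of 4 fell to 2 without control replicate 1 or OE-labelled replicate 2 and to 1 without control replicate 2 or 3. Pdia3, the disulphide isomerase that works with both chaperones, was the other lower gene, at -0.41 (SE 0.11), a call lost without any 1 control library and without OE-labelled replicate 2. With the GC offset the calls for Edem3, Man1b1 and Pdia3 were lost, and with DESeq2's test those for Edem3 and Man1b1.

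The translocation list holds the channel and the signal recognition particle. Among 18 tested of its 20 genes, 4 were called as higher and 1 as lower (27.8% called). The log2 fold change was positive in 11 of the 18, with a median of 0.06. Sec61b, a small channel subunit, had 103.1 ± 11.7 CPM among controls and 154.1 ± 42.9 CPM among OE-labelled libraries (SD, n = 3; log2 0.58, SE 0.18; adjusted p = 0.0303 in edgeR). The subunits of the receptor for the signal recognition particle went in opposite directions, Srpr with -0.70 (SE 0.21; adjusted p = 0.0225 in edgeR) and Srprb with 0.66 (SE 0.22; adjusted p = 0.0359 in edgeR). All 3 calls were fragile: Sec61b was lost in 5 of the 6 fits that left out 1 library, all but that without OE-labelled replicate 1 (edgeR adjusted p 0.0634 to 0.137), Srpr without any 1 control library (0.0651 to 0.0796), and Srprb without control replicate 1 or 2 or OE-labelled replicate 1 or 2 (0.107 to 0.154). The list count of 5 fell to 1 without control replicate 1 or 2, to 2 without control replicate 3 and to 3 without OE-labelled replicate 2. Sec61a1 and Srp68 were the other higher genes, and Sec61a1 lost its call without any 1 control library and without OE-labelled replicate 2. With the GC offset Sec61b, Sec61a1 and Srp68 were no longer called, and with the exonic length offset Sec61b and Srprb were not. DESeq2's test and the fit without mitochondrial genes and CT010467.1 did not call Srprb.

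Among Golgi genes that mature N-glycans, the log2 fold change was positive in 12 of 20 tested, with a median of 0.13. Of the 20, 4 were called as higher and 2 as lower (30.0% called). That balance depended on scaling and filter, with 1 higher and 3 lower under DESeq2 size factors, 1 and 3 without mitochondrial genes and CT010467.1, and 1 and 4 with no count filter. Man1a, an alpha-mannosidase of the Golgi, fell from 19.5 ± 0.759 to 8.18 ± 2.07 CPM (SD, n = 3; log2 -1.25, SE 0.24; adjusted p = 0.0023 in edgeR). Its relative Man1c1 rose from 12.0 ± 5.12 to 26.3 ± 1.02 CPM (SD, n = 3; log2 1.12, SE 0.26; adjusted p = 0.00661 in edgeR). Man2a1, the next mannosidase in the path, had 17.5, 23.9 and 20.3 CPM among controls and 4.05, 8.26 and 17.8 CPM among OE-labelled libraries (log2 -1.04, SE 0.37; adjusted p = 0.0498 in edgeR), a call lost without any 1 control library and without OE-labelled replicate 2 (0.0865 to 0.165). The call for Man2a1 was also lost with library totals, the GC offset and the exonic length offset. The branching enzymes Mgat1 and Mgat4b and the galactosyltransferase B4galt3 were the other higher genes, each losing its call without any 1 control library. In all, they lost their calls in 12, 12 and 10 of the 16 alternatives. The list count of 6 fell to 2 without any 1 control library and to 3 without OE-labelled replicate 2.

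The genes whose pattern over the 6 libraries was most like that of Ost4 were sought among 9269 tested genes (average log2 CPM 3 or more). Likeness was measured by the root mean square difference of log2 CPM centred on each gene's mean. The other subunits and gene models with only a number or clone name were left out, so such models may lie nearer. The 5 nearest were Ccn2 (0.39), a secreted matrix-associated growth regulator, Ldb1 (0.41), a LIM-domain cofactor, Pparg (0.48), a lipid-sensing nuclear receptor, Igfbp3 (0.49), a binding protein of insulin-like growth factors, and Rpl35 (0.50), a protein of the large ribosomal subunit. Ccn2 had 648.9, 725.8 and 651.9 CPM among controls and 23.1, 296.9 and 287.1 CPM among OE-labelled libraries. Rpl35 had 1667.0, 1661.2 and 1632.3 CPM among controls and 252.8, 676.8 and 622.8 CPM among OE-labelled libraries. All 5 genes, like Ost4, had their lowest value in OE-labelled replicate 1 and no overlap between the groups, which the choice by likeness favours. Of the other 9 subunits, Stt3a had its lowest value of the 6 libraries there.

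**Figure D4:**
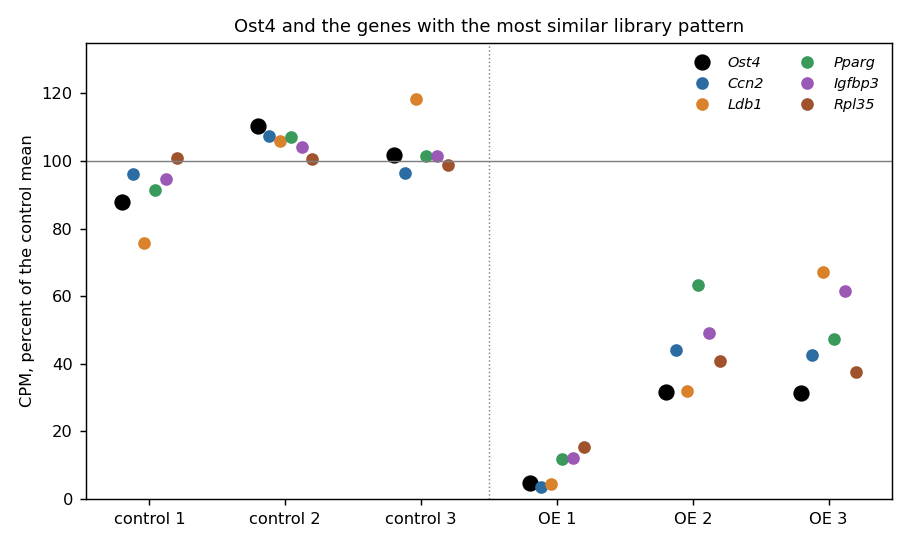
CPM in each of the 6 libraries as a percentage of the control mean of the gene (vertical axis, from 0), for Ost4 (black) and the 5 genes nearest to it in pattern among those compared. In OE-labelled replicate 1 all 6 genes are at their lowest, with Ost4 at 2.84 and Ccn2 at 23.1 CPM.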

How the data were processed

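The 10 members, the gene lists and the naming rule were chosen with earlier results of these data known. Polyadenylated RNA was sequenced from its 3′ end in 6 libraries made from 500 ng total RNA each, 3 per group by the sample titles, and columns were matched to samples through the library names. The table the authors deposited holds estimated counts of reads per gene, not normalized. The submitters' processing notes name STAR, HTSeq and the builds mm10 and GRCm38, while the annotation, strand setting and treatment of multi-mapping reads and molecular identifiers are not given in the sources used here. Of values above 0, 3.1% were fractional (0 of the 60 subunit values), and counts were rounded to whole numbers, where whole counts had been the planned input. All columns of values were used.

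The groups were compared in 1 fit over 10687 genes kept by filterByExpr, with TMM scaling, edgeR 4.0.16's quasi-likelihood test (two-sided, R 4.3.3) and Benjamini-Hochberg adjustment. Each SE was obtained from the log2 fold change and its F statistic. The fit was also run on simulated counts with 200 changed genes and the same spread in both groups. That run cannot speak to the unequal spread of the groups here. Positions, GC content (longest transcript) and exonic length came from GENCODE M21, which held 99.5% of the gene identifiers, and start regions from RefSeq (GRCm38.p6). The last 300 bases of each subunit's longest transcript were searched for copies of at least 90% identity over 50 bases in other transcripts: Ddost matched Wdr19 over 56 bases and Ost4 its overlapping neighbour Agbl5, and the other 8 subunits matched none. The labels do not say that replicates were separate cultures, so p-values may measure technical spread only. Genes named were the members, the 3 partners and up to 3 called genes per other list by size of change (average log2 CPM 3 or more). The 5 genes nearest to Ost4 were added, with other subunits and gene models with only a number or clone name left out. Other names were chosen after their values were seen. Alternatives were DESeq2 size factors, library totals, DESeq2 1.42.0, no count filter, unrounded counts, removal of mitochondrial genes and CT010467.1 (an abundant ribosomal RNA gene), the replicate number as a block, loess offsets (span 0.5) for GC content and exonic length, and each library left out. One marker gene is not reported here.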

Additional observations from a re-analysis of the deposited data

How the results depend on the processing

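Of 160 values of the 10 subunits under 16 alternatives, 143 kept direction and call. Rpn2 was no longer called with the GC offset (0.33, also 0.33 with the block), nor was Ddost (0.34, also 0.34 with the block; 0.36 with the length offset). With the replicate block and GC offset together, Ostc (0.37) and Tusc3 (0.54) were called. Stt3a changed sign with the GC offset (0.09; 0.08 with the block), and Magt1 with library totals (0.03) and the GC offset (0.22; 0.22 with the block). With each library left out in turn, Ost4 ran from -2.52 to -1.72, Ostc from 0.15 to 0.42, Dad1 from 0.36 to 0.56, Tusc3 from 0.15 to 0.50 and Magt1 from -0.08 to 0.03, whose sign was positive without control replicate 3 (0.01) or OE-labelled replicate 2 (0.03). Krtcap2 became -0.04 with the length offset. The genes called, 3118 in all, were 1959 with DESeq2's test and 1748 to 3532 when single libraries were left out, lowest without control replicate 3 (1748), 2 (1837) and 1 (1893). Of the calls 56.6% were higher, against 49.9% with DESeq2 size factors (3077 calls) and 63.8% with library totals (3189). Without mitochondrial genes and CT010467.1 the share was 47.9% (3113). The median of all genes moved by less than 0.1 from its 0.041, but its sign changed in some settings. It was -0.003 with DESeq2 size factors and -0.055 with DESeq2's test. With no count filter it was -0.054, and without mitochondrial genes and CT010467.1 -0.019. List counts were 5 for glycan synthesis, 2 for trimming and 3 for Golgi genes with DESeq2, 1 for trimming and 2 for translocation with the GC offset (1 and 2 with the block), and 4 for glycan synthesis and 0 for the partners with the length offset. For the partners with the length offset, edgeR gave 1 at an unadjusted p below 0.05, and DESeq2's test, run without any offset, called 1. Leaving out single libraries gave 0 to 2 partners, 5 to 9 glycan synthesis, 1 to 6 trimming, 1 to 6 translocation and 2 to 8 Golgi genes.

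The replicate numbers in the titles do not state a shared culture, and deviations of equally numbered libraries correlated at 0.1, 0.02 and 0.07. Adding the replicate block gave 3112 called genes, 2958 of them shared, and the log2 fold change of Ost4 was -2.22. No subunit's call changed with the block alone. The cause of these shifts was not tested. Depth limits Ost4 most, at 7 counts in OE-labelled replicate 1.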
